A study of Homo sapiens with 10 samples.

Results

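The 10 genes described here encode growth factor receptor tyrosine kinases, namely EGFR, ERBB2, ERBB3 and ERBB4 of the ERBB family, the insulin-like growth factor receptor IGF1R, the hepatocyte growth factor receptor MET, and the fibroblast growth factor receptors FGFR1, FGFR2, FGFR3 and FGFR4. They were listed by name, and all acetylation peaks over each gene body and 50 kb to each side were taken. This gave 10 of the 20033 protein-coding genes of the annotation and 876 of the 537404 peaks of the study.

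Receptor tyrosine kinases span the cell membrane. A ligand bound outside the cell brings receptors together as pairs, their kinase domains phosphorylate each other, and adaptor proteins then pass the signal to the RAS-MAPK and PI3K-AKT pathways. In the prostate, signalling through these receptors supports epithelial growth, and it can sustain carcinoma cells under hormone therapy. H3K27ac and H3K18ac, the acetylated forms of lysines 27 and 18 of histone H3, are found at promoters and enhancers in use.

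C4-2B cells come from prostate adenocarcinoma and grow without testicular androgen (castration-resistant). C4-2BER was derived from them by continuous exposure to the antiandrogen drug enzalutamide, is kept in the drug, and is called neuroendocrine-like by the labels. Both are established lines grown in the same medium, C4-2BER is a single derived line, and drug exposure and line cannot be told apart. ChIP-Seq of both marks was made in 2 libraries per mark and line, 8 in all, with 1 input library per line. The authors merged the replicates before they called peaks, so each of the 4 lists holds 1 pooled value per peak, with no replicate error, which leaves nothing to test between the lines. Depth is unknown, since read counts are not part of the lists.

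Each peak has a fold enrichment, the ratio of ChIP signal to local background averaged over the peak, so that a wide peak over a sharp summit has a lower value. The values are scaled to the background of their own list and not between lines. The lists held 72971 H3K27ac peaks in C4-2BER against 68034 in C4-2B, and 197948 and 198451 H3K18ac peaks. Promoters of the prostate luminal markers KLK3 and TMPRSS2 had an H3K27ac peak in both lines, with a fold enrichment of 13.8 and 20.03 in C4-2BER. Of 9 neuroendocrine markers, 4 had such a peak in each line, and CHGA, INSM1, NEUROD1 and SRRM4 had none in either line. Neuroendocrine marker peaks reached a fold enrichment of at most 5.67 in C4-2BER versus 8.16 in C4-2B. H3K27ac at these promoters did not set C4-2BER apart as neuroendocrine. Where 2 values are given without a line, the first is C4-2BER and the second C4-2B.

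A promoter was the stretch between 2000 bp before and 500 bp after an annotated transcription start site (TSS), and its value was the highest fold enrichment of a peak there. It was called increased in C4-2BER with a peak in that list alone or with a ratio of at least 2, and decreased in the mirrored case. By this definition the H3K27ac promoters of 4 receptors, IGF1R, FGFR2, FGFR3 and FGFR4, were decreased. The sequences are shown for these 4, because the largest promoter differences of the family lay there. Each is the 250 bases before the TSS in the RefSeq promoter table (GRCh38.p14), which held 8 of the 10 genes, written 5′ to 3′ in the direction of the gene, with matches to the GC box GGGCGG on either strand in capitals. They lie at chr15:98648289-98648538 on the plus strand for IGF1R, chr10:121598445-121598694 on the minus strand for FGFR2, chr4:1793043-1793292 on the plus strand for FGFR3 and chr5:177086665-177086914 on the plus strand for FGFR4. The 3′ ends of the FGFR2 and FGFR4 stretches overlap exons of annotated transcripts that start further upstream.
IGF1R promoter: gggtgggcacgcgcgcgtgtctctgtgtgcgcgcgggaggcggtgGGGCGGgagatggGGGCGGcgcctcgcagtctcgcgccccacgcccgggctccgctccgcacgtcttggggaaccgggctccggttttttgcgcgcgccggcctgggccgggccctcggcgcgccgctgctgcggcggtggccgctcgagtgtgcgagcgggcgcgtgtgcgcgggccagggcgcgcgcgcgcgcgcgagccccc
FGFR2 promoter: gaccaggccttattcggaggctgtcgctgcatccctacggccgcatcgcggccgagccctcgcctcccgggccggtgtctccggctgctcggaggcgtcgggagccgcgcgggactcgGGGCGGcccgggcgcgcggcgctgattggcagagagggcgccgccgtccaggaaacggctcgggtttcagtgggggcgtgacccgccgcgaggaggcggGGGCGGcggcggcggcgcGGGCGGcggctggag
FGFR3 promoter: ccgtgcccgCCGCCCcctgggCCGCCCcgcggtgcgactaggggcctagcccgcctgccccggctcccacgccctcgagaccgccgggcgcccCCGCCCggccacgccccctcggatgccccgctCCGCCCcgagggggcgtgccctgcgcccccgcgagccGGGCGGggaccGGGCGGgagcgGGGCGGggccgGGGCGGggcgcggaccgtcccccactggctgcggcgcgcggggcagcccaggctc
FGFR4 promoter: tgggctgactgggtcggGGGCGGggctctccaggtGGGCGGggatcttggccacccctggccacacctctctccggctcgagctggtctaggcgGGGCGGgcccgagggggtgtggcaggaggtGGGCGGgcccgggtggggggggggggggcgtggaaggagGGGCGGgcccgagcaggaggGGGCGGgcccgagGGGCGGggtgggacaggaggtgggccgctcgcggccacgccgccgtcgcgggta

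These stretches held 2 GC boxes at IGF1R, 3 at FGFR2, 8 at FGFR3 and 7 at FGFR4. A GC box was present in 42.5% of the 34943 promoters of the table. The letters of a forkhead site (TGTTTAC), a proneural E-box (CAGCTG) and a PBX site (TGATTGAT) were searched on both strands and were not found in the 4 stretches. These letters occurred in 2.98%, 14.0% and 0.418% of all promoters of the table. Over the whole promoter of the canonical TSS, GC content was 69.3% at FGFR3, 64.4% at IGF1R, 58.2% at FGFR4 and 50.9% at FGFR2. The median GC content was 61.3% for these 4, 55.1% for the other members and 52.4% for all protein-coding genes. Only FGFR3 and IGF1R thus stood apart from the members without a call. FGFR4 was close to ERBB3 (57.9%) and EGFR (57.0%), which were not called, and FGFR2 lay below all members without a call except MET (48.5%). The part of GC content in the differences was not tested.

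All 10 receptors had a promoter peak of both marks in both lines. In H3K27ac, 0 of the 10 were increased and 4 decreased, against 4.56% increased and 10.8% decreased among the 15346 protein-coding genes with an H3K27ac promoter peak. For H3K18ac, 0 were increased and 1, IGF1R, was decreased, against 2.15% and 5.90% of 17828 genes. The values were lower in C4-2BER at 8 of 10 receptors in each mark and higher at 2, where 12.2% of all genes with a peak in both lines were higher in H3K27ac and 15.1% in H3K18ac. The lists as a whole were shifted the same way: the median log2 ratio (C4-2BER to C4-2B) of all genes was -0.50 for H3K27ac and -0.33 for H3K18ac, and that of the receptors was -0.41 and -0.28. After rescaling by a line fitted through all shared regions, 5 receptors were higher in H3K27ac and 4 in H3K18ac, and the same 4 H3K27ac promoters remained decreased. The rescaled median log2 ratio was -0.111 in H3K27ac and -0.128 in H3K18ac for all genes, and 0.0 and -0.05 for the receptors. The share of all genes that were higher after rescaling was not computed.

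**Figure D1:**
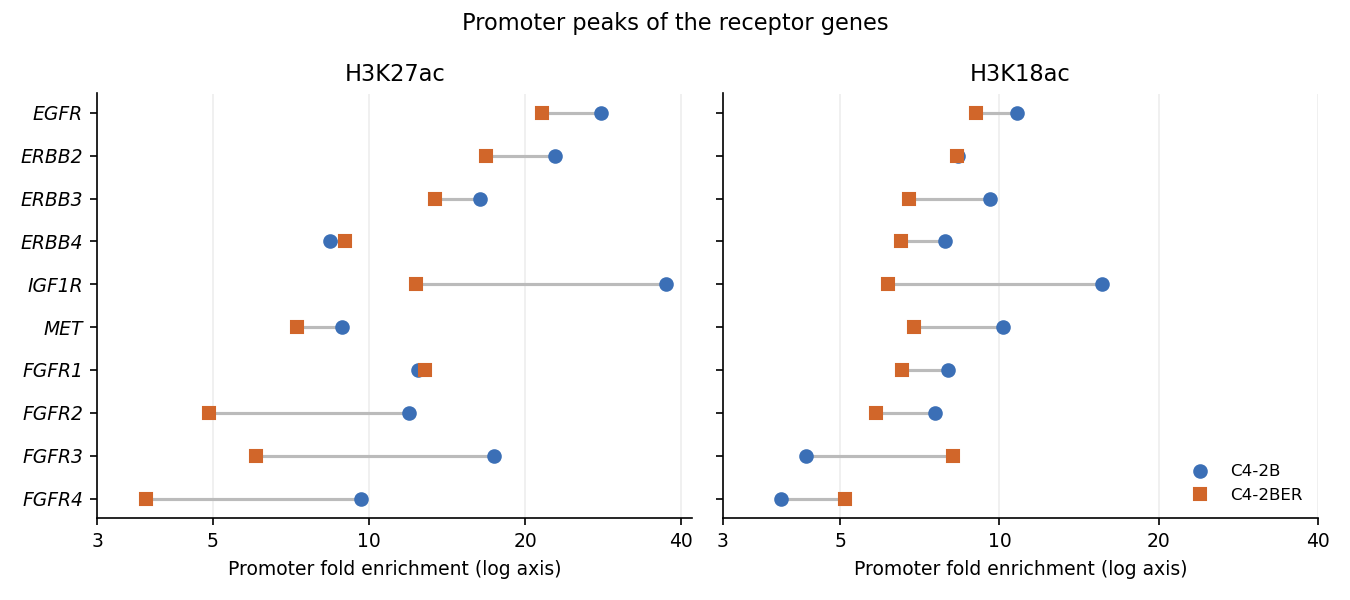
Promoter fold enrichment (log axis) of each receptor gene in C4-2B (circles) and C4-2BER (squares), with H3K27ac on the left and H3K18ac on the right; each point is 1 pooled peak list without replicate error. The widest H3K27ac gaps are at IGF1R, FGFR3, FGFR4 and FGFR2, and in H3K18ac FGFR3 and FGFR4 lie higher in C4-2BER.

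IGF1R binds the insulin-like growth factors and signals through IRS adaptors. Its gene (ENSG00000140443.15) lies at chr15:98648539-98964530. Fold enrichment of the H3K27ac promoter peak reached 12.4 in C4-2BER against 37.4 in C4-2B, and the H3K18ac peak 6.15 and 15.6. IGF1R was the member with the strongest promoter of both marks in C4-2B, above 98.1% (H3K27ac) and 99.4% (H3K18ac) of the promoters with a peak, and it stood near the middle in C4-2BER, above 49.0% and 59.0%. The log2 ratios were -1.60 and -1.34, lower than at all but 0.461% and 0.126% of genes. The H3K18ac peak had nearly the same width in both lines, 4435 bp and 4370 bp, while the H3K27ac peak was 3500 bp wide in C4-2BER against 5842 bp in C4-2B. Fold enrichment times width was also summed over whole peaks at all its 16 annotated start sites. The log2 ratio of this sum was -2.20 in H3K27ac and -0.31 in H3K18ac. The H3K18ac call was thus lost in the sum, although the H3K18ac peak at the canonical TSS differed little in width. The promoter peaks also cover the promoter of IRAIN, an antisense noncoding RNA of the locus, and the marks cannot be assigned to either strand.

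FGFR3 encodes a fibroblast growth factor receptor best known from skeletal growth and urothelial carcinoma, and its gene (ENSG00000068078.20) lies at chr4:1793293-1808872. Its H3K27ac promoter fold enrichment was 6.07 in C4-2BER against 17.4 in C4-2B (log2 ratio -1.52). FGFR4 (ENSG00000160867.15, chr5:177086905-177098144), the receptor for FGF19 in liver, had 3.72 and 9.65 (log2 ratio -1.38). FGFR2 (ENSG00000066468.24, chr10:121478332-121598458), whose epithelial isoform receives FGF7 and FGF10 from stroma, had 4.93 and 11.96 (log2 ratio -1.28). In C4-2BER these were the 3 lowest H3K27ac promoters of the family.

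In H3K18ac the fibroblast growth factor receptors did not follow this pattern. FGFR2 reached 5.84 in C4-2BER against 7.54 in C4-2B, a log2 ratio of -0.37, close to the median of all genes. FGFR3 had 8.18 and 4.31, and FGFR4 had 5.10 and 3.87, so both were higher in C4-2BER. Peak width moved with these values. The FGFR3 promoter lay in a peak of 5226 bp in C4-2BER and of 56300 bp in C4-2B, and the FGFR4 promoter in peaks of 6618 bp and 15461 bp. With fold enrichment times width, the H3K18ac log2 ratio was -2.66 at FGFR3 and -0.65 at FGFR4, so the direction at both turned. The same measure gave -2.48 and -1.11 for their H3K27ac promoters.

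**Figure D2:**
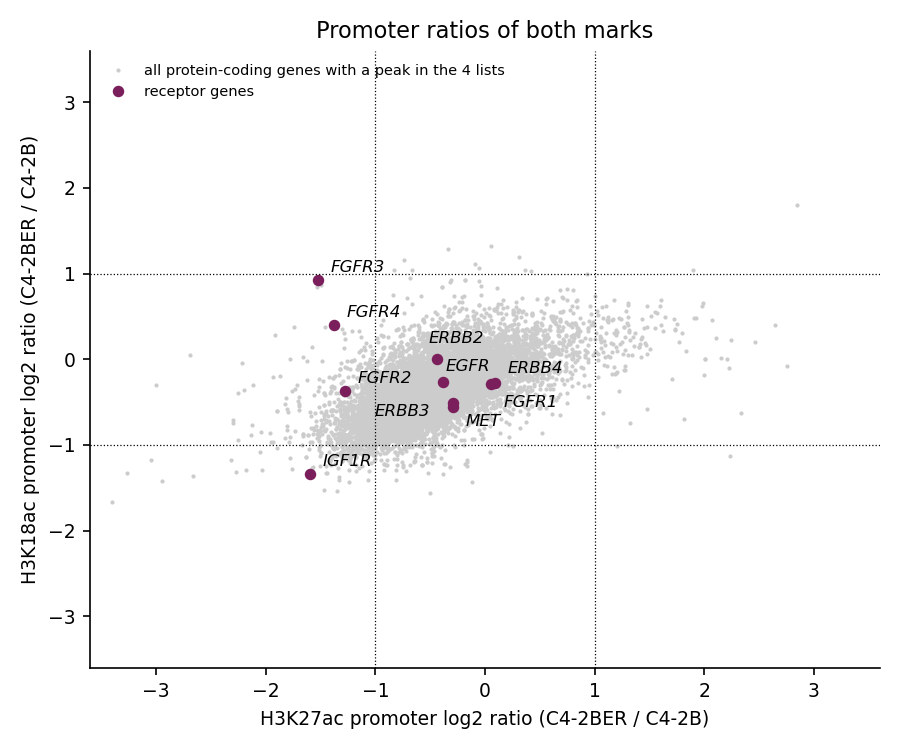
Log2 ratio of promoter fold enrichment (C4-2BER to C4-2B) for H3K27ac (horizontal) and H3K18ac (vertical); grey points are protein-coding genes with a promoter peak in all 4 lists, dark points the receptors, and dotted lines a ratio of 2. IGF1R is past the line in both marks, while FGFR3 and FGFR4 are past it in H3K27ac and above 0 in H3K18ac.

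FGFR1, the remaining member of this subfamily and the main receptor for FGF2, had nearly equal H3K27ac promoter values. Fold enrichment was 12.9 in C4-2BER versus 12.4 in C4-2B for H3K27ac (log2 ratio 0.05), and 6.55 and 7.99 for H3K18ac (log2 ratio -0.29). ERBB4, a receptor for neuregulins, was the other member whose H3K27ac promoter was not lower in C4-2BER, with 8.98 and 8.42 (log2 ratio 0.09), and its H3K18ac values were 6.50 and 7.87. Relative to all genes, the H3K27ac ratios of FGFR1 and ERBB4 were high, above those of 89.5% and 90.6% of genes, although neither was called increased.

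EGFR, the receptor for EGF, TGFA and amphiregulin, had the strongest promoter of the family in C4-2BER. Its H3K27ac fold enrichment was 21.6 in C4-2BER against 28.1 in C4-2B, and its H3K18ac fold enrichment 9.03 and 10.8. ERBB2, which has no known ligand of its own and pairs with the other ERBB receptors, had 16.8 and 22.8 in H3K27ac and 8.33 in both lines in H3K18ac. The log2 ratios of EGFR and ERBB2 in H3K27ac, -0.38 and -0.44, were above the median of all genes. With fold enrichment times width, summed over whole peaks at all its start sites, the H3K18ac log2 ratio of EGFR was 1.13, past the threshold for an increase. That sum takes in wide peaks within the gene, such as chr7:55107497-55122925, which was 1 peak in C4-2BER and 4 in C4-2B. At the canonical TSS itself the H3K18ac peak was 6903 bp wide in C4-2BER and 5517 bp in C4-2B. The H3K27ac ratio of the sum stayed below 0 at -0.64.

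ERBB3, a neuregulin receptor with weak kinase activity, showed an H3K27ac promoter value (fold enrichment) of 13.4 in C4-2BER against 16.4 in C4-2B. The C4-2BER value belongs to a peak at the 3′ end of the gene that reaches start sites of short transcripts there. At the canonical TSS the values were 11.1 and 16.4 (log2 ratio -0.56). In H3K18ac ERBB3 had 6.74 and 9.58. MET, whose ligand is hepatocyte growth factor, had 7.27 and 8.86 in H3K27ac and 6.90 and 10.2 in H3K18ac, and its H3K27ac promoter ranked above only 19.6% of promoters with a peak in each line.

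Peaks of both lines that overlapped were merged into regions, and regions were called by the same rule, with the fold enrichment of several peaks averaged by length. The receptor windows held 173 H3K27ac regions, of which 27 (15.6%) were increased and 68 (39.3%) decreased. Among the 77248 H3K27ac regions in the window of any protein-coding gene, 29.1% were increased and 22.5% decreased. They held 334 H3K18ac regions, of which 47 (14.1%) were increased and 81 (24.3%) decreased, against 24.5% and 23.8% of 191209 regions. Decreased regions were thus a larger share than in the background for H3K27ac and a similar share for H3K18ac, and increased regions a smaller share for both. Of the 68 decreased H3K27ac regions, 58 had a peak in C4-2B alone, with a median fold enrichment of 2.65.

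Most of the decreased H3K27ac regions lay in 3 loci. IGF1R held 22, EGFR 16 and FGFR3 13. Without these 3 loci, a choice made after their values were seen, 17 of 77 regions were decreased and 22 increased. These shares were near the 22.5% and 29.1% of the regions of all protein-coding genes. The loci were left out for their many decreased regions, so the decreased share of the rest had to fall. This comparison therefore cannot decide where the difference from the background lay. Outside the receptors' own promoters, 32 of 69 H3K27ac regions in the gene bodies were decreased and 8 increased, and in the flanks 24 of 77 were decreased and 17 increased. Shares by place were not computed for all genes, so these counts cannot be set against a background. In the pooled regions, GC content moved with the call. The median was 55.3% in decreased, 48.6% in increased and 50.3% in the other H3K27ac regions of the receptors, and 55.4%, 49.6% and 51.9% over all regions. It also differed between loci, with a median over all H3K27ac regions of 48.6% at IGF1R, 50.2% at EGFR and 64.2% at FGFR3. The part of GC content in the counts was not tested.

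**Figure D3:**
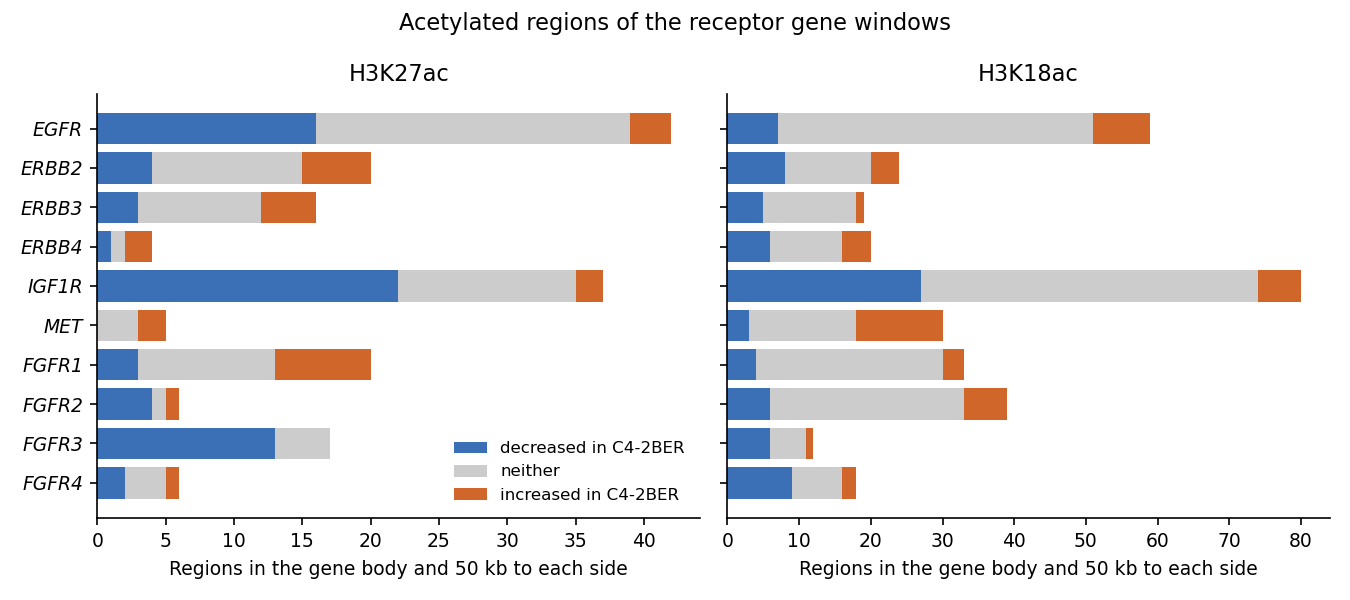
Number of H3K27ac (left) and H3K18ac (right) regions in the window of each receptor gene (gene body and 50 kb to each side) that were decreased, increased or neither in C4-2BER. IGF1R, EGFR and FGFR3 hold 22, 16 and 13 of the 68 decreased H3K27ac regions. MET, FGFR1, ERBB2, ERBB3 and ERBB4 hold more increased than decreased H3K27ac regions, with 5 regions in all at MET and 4 at ERBB4. The windows of all protein-coding genes also held more increased (29.1%) than decreased (22.5%) H3K27ac regions.

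In both marks, 17 of the 173 H3K27ac regions were decreased and 3 increased, against 5.19% decreased and 7.38% increased in both marks among the 77248 H3K27ac regions in the windows of all protein-coding genes. The decreased ones were at IGF1R (8), EGFR (3), ERBB2 (3) and FGFR3 (3). The 3 increased ones, in the ERBB2 and ERBB3 flanks and over a start site of a short FGFR1 transcript, were present in C4-2BER alone, and their fold enrichment lay between 2.11 and 2.88. Outside the promoters, the strongest regions decreased in both marks were in intron 1 of EGFR and intron 1 of IGF1R. Their central 200 bases, within the overlap of both marks and on the plus strand of GRCh38, are shown for that reason, at chr7:55078641-55078840 and chr15:98655999-98656198, with GC boxes in capitals.
EGFR intron 1: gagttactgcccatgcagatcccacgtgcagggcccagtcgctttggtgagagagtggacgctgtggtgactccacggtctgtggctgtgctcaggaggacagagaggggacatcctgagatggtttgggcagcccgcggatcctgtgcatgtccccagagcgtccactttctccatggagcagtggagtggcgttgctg
IGF1R intron 1: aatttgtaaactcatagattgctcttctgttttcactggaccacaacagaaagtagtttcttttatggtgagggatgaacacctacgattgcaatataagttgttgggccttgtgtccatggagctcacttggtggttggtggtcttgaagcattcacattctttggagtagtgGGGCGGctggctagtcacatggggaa

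The EGFR stretch held no match to these motifs and the IGF1R stretch held 1 GC box, which occurred in 14.2% of the central 200 bases of all H3K27ac regions. The EGFR region, chr7:55072270-55083083, lies 58.7 kb downstream of the TSS. Its H3K27ac fold enrichment was 3.74 in C4-2BER, averaged over 3 peaks, and 13.1 in C4-2B, where it was 1 peak (log2 ratio -1.81). It overlapped several H3K18ac regions, of which only chr7:55077532-55079949 was called decreased. That region had 3.94 and 10.9 (log2 ratio -1.47), the highest H3K18ac value of the locus in C4-2B. The other overlapping H3K18ac regions were also lower in C4-2BER but not called, with log2 ratios of -0.64, -0.71 and -0.35. The IGF1R region, chr15:98655576-98656518, lies 7.5 kb downstream of the TSS. It had an H3K27ac fold enrichment of 7.00 in C4-2B and no peak in C4-2BER, and in H3K18ac it had 2.35 in C4-2BER against 7.70 in C4-2B.

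The IGF1R window held 22 H3K27ac peaks in C4-2BER versus 37 in C4-2B. Of its 37 H3K27ac regions, 22 (59.5%) were decreased and 2 increased, a decreased share above that of 97.9% of genes with at least 10 regions. Peaks covered 11.5% of the window in C4-2BER against 20.9% in C4-2B. The fall ran along the gene and was not limited to its 5′ end. A region in intron 2 (chr15:98795330-98807122) had 3.64 in C4-2BER versus 9.68 in C4-2B, a region at exon 19 (chr15:98939798-98945130) had 3.09 and 9.37, and a region at exon 21 (chr15:98948981-98957300) had 2.56 and 7.94. Other regions of intron 2 differed less, with 11.1 and 15.3 at chr15:98726657-98729893. The strongest H3K27ac peak of the window in C4-2BER, 15.4 against 21.9 in C4-2B, lay 49619 bp past the gene over the promoter of the long noncoding RNA LUNAR1. In H3K18ac, 27 of 80 IGF1R regions were decreased and 6 increased.

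The FGFR3 window held 6 H3K27ac peaks in C4-2BER against 17 in C4-2B. Of 17 H3K27ac regions, 13 (76.5%) were decreased and 0 increased, a decreased share above that of 99.6% of genes with at least 10 regions. Coverage by H3K27ac was 13.4% in C4-2BER versus 36.3% in C4-2B, and by H3K18ac 29.7% and 74.5%. Apart from the promoter, 12 of the 13 decreased regions were peaks of C4-2B alone, and the strongest of these had a fold enrichment of 3.74. The highest H3K27ac peak of the window in both lines, 12.5 and 19.99, lay over the promoter of the neighbour LETM1. In H3K18ac the C4-2B peak of 56300 bp corresponded to 11 separate peaks in C4-2BER, with a mean fold enrichment of 4.31 in C4-2B and 4.13 in C4-2BER.

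The EGFR gene (ENSG00000146648.21) lies at chr7:55019017-55211628, and its window held 30 H3K27ac peaks in C4-2BER against 40 in C4-2B. Of 42 H3K27ac regions, 16 (38.1%) were decreased and 3 increased, while in H3K18ac 7 of 59 were decreased and 8 increased. Coverage by H3K27ac was lower in C4-2BER, 22.5% against 30.9%, and coverage by H3K18ac was higher, 47.0% against 40.5%. For the windows of all protein-coding genes, median coverage was higher in C4-2BER in both marks. It was 7.89% against 6.16% in H3K27ac and 16.2% against 14.5% in H3K18ac. A wide H3K27ac region over exons 17 to 20 (chr7:55172950-55188371) had 8.16 and 14.1. A region 42579 bp past the gene, over the promoter of the long noncoding RNA ELDR, had 12.3 and 21.1. Neither reached a ratio of 2.

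**Figure D4:**
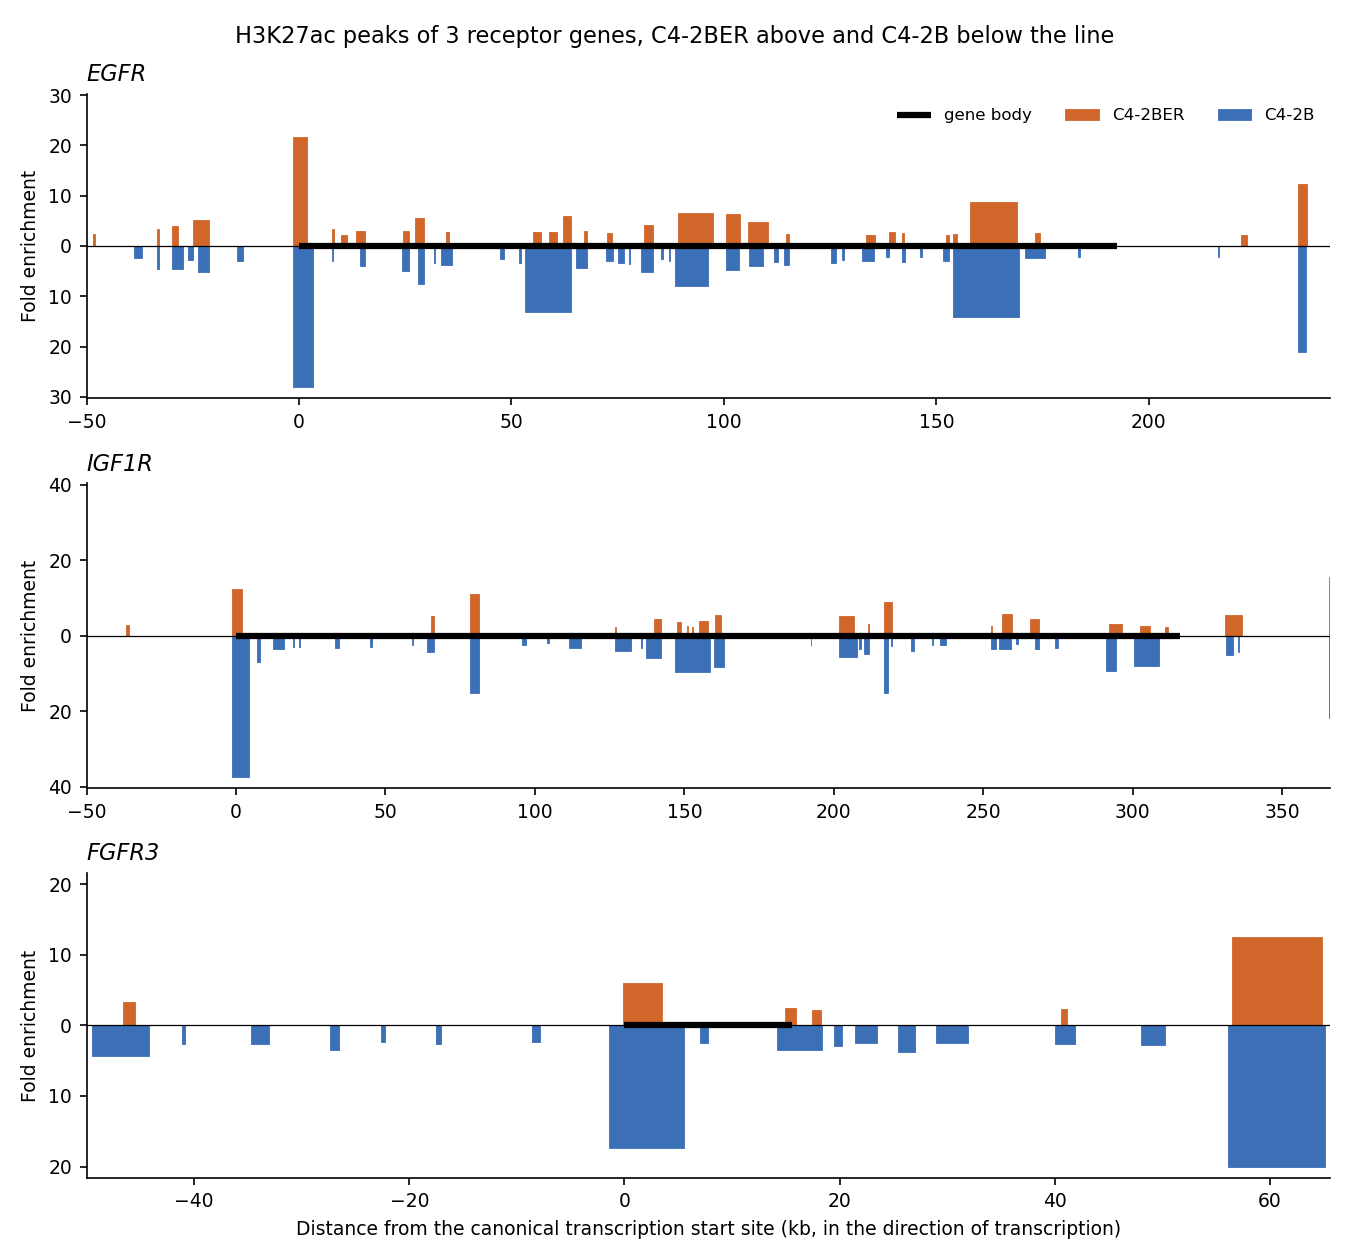
H3K27ac peaks over EGFR, IGF1R and FGFR3 by distance from the canonical TSS (kb, in the direction of transcription); bar height is fold enrichment, with C4-2BER above and C4-2B below the line, bar width is peak width, and the black bar is the gene body. The EGFR peak with 13.1 in C4-2B at 58.7 kb has only low counterparts in C4-2BER, and most of the FGFR3 peaks outside the promoter are present in C4-2B alone.

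ERBB2 (ENSG00000141736.14, chr17:39687914-39730426) and ERBB3 (ENSG00000065361.17, chr12:56076799-56103505) lie among closely spaced genes. H3K27ac covered more of their windows in C4-2BER, 48.3% against 35.9% at ERBB2 and 40.2% against 30.9% at ERBB3. The median window of all protein-coding genes was also covered more in C4-2BER, 7.89% against 6.16%. The fold enrichment of most regions with a peak in both lines was lower, with 2 of 11 higher in C4-2BER at ERBB2 and 2 of 10 at ERBB3. At ERBB2 the highest H3K27ac value in C4-2B, 26.8 against 14.1 in C4-2BER, lay downstream of the gene. At ERBB3 it was 28.3 against 13.4, in a region that spans exons 24 to 28 and the promoter of PA2G4, which encodes an ERBB3-binding protein. That region was called decreased (log2 ratio -1.07), while the H3K18ac region at the PA2G4 promoter had 7.58 and 9.45.

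ERBB4 (ENSG00000178568.16, chr2:211375717-212538841) is the longest gene of the set, at 1163.1 kb, and was almost bare. H3K27ac covered 0.209% of its window in C4-2BER versus 0.171% in C4-2B, with 4 regions in all. Besides the promoter, an intron 2 region (chr2:211977569-211977908) had an H3K27ac peak of 3.28 in C4-2BER alone, and its H3K18ac peak was present in both lines, with 4.64 and 3.55.

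MET (ENSG00000105976.16, chr7:116672196-116798377) was the only receptor with 0 decreased H3K27ac regions. Of its 5 H3K27ac regions 2 were increased, and of its 30 H3K18ac regions 12 were increased and 3 decreased. An intron 17 region (chr7:116780507-116781973) had an H3K27ac fold enrichment of 5.24 in C4-2BER against 2.41 in C4-2B (log2 ratio 1.12), the largest rise of a shared H3K27ac region at MET. H3K18ac covered 9.67% of the window in C4-2BER against 5.47% in C4-2B, and 0.903% against 0.932% with peaks of a fold enrichment of at least 4. The 12 increased H3K18ac regions were peaks of C4-2BER alone and weak, with a fold enrichment of at most 2.79.

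FGFR1 (ENSG00000077782.23, chr8:38400215-38468834) held 7 increased and 3 decreased of 20 H3K27ac regions, and each increased one was a peak of C4-2BER alone. An intron 2 region had an H3K27ac fold enrichment of 10.1 in C4-2BER against 5.58 in C4-2B (log2 ratio 0.85), under the ratio for a call. The highest value of the window, 16.6 and 30.7, lay over the promoter of the neighbour NSD3. At FGFR2, 4 of 6 H3K27ac regions were decreased, among them an upstream region (chr10:121607338-121609645) with 2.36 and 4.85, whose H3K18ac values were 3.73 and 5.69. At FGFR4, H3K27ac covered nearly the same share of the window in both lines, 6.89% and 6.69%, while H3K18ac covered 15.4% in C4-2BER versus 33.8% in C4-2B. Both depended on the setting: with peaks of a fold enrichment of at least 4, H3K18ac covered 8.30% versus 4.09%, and in the gene body alone H3K27ac covered 7.73% versus 26.6%. The highest H3K27ac value of the FGFR4 window, 16.2 and 30.3, lay over the promoter of the neighbour NSD1.

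**Figure D5:**
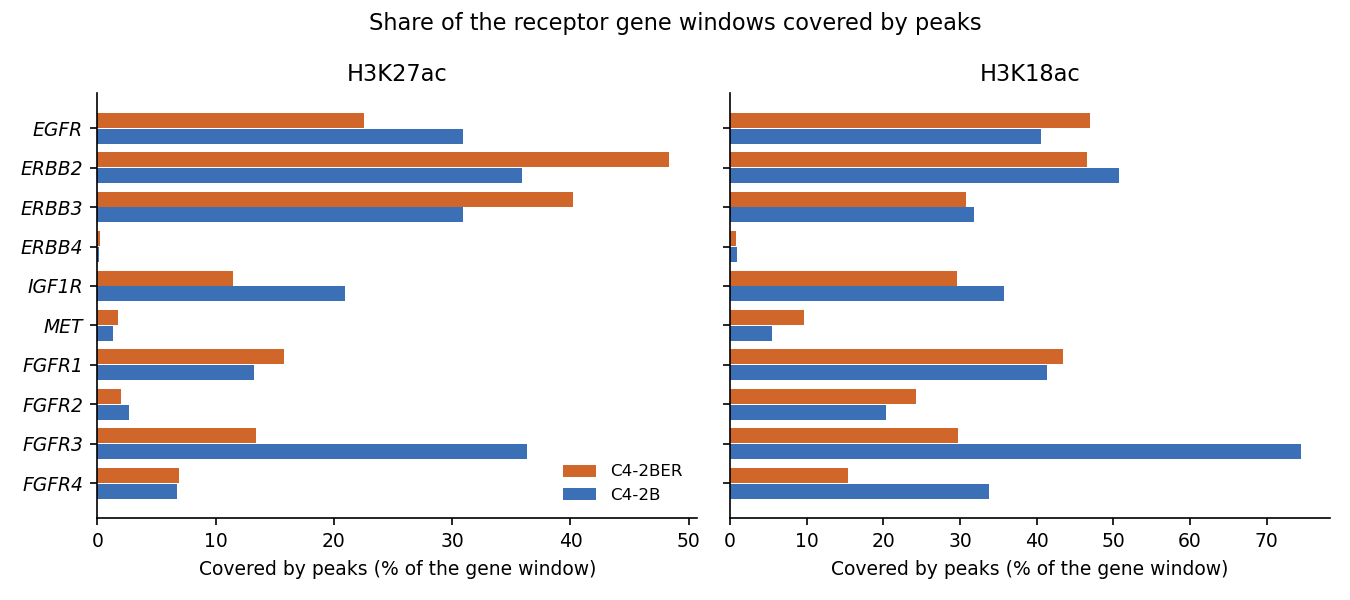
Share of each receptor gene window (gene body and 50 kb to each side) covered by H3K27ac (left) and H3K18ac (right) peaks in C4-2BER and C4-2B, in percent. H3K27ac coverage of FGFR3 is 13.4% in C4-2BER against 36.3% in C4-2B, and ERBB2 and ERBB3 are covered more in C4-2BER. The median H3K27ac coverage over all protein-coding genes is also higher in C4-2BER, 7.89% against 6.16%.

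The promoters of 66 other genes of the pathway were described in the same way. In H3K27ac, 57 had a peak, of which 4 were increased and 3 decreased, beside the 4.56% and 10.8% given for all genes. In H3K18ac, 64 had a peak, of which 1 was increased and 1 decreased, beside 2.15% and 5.90% of all genes with a peak. Among those with a peak in both lines, the median log2 ratio was -0.48 in H3K27ac and -0.25 in H3K18ac, near the medians of all genes.

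Each of the increased H3K27ac promoters belonged to a ligand gene and had no peak in C4-2B. NRG2, a neuregulin that binds ERBB3 and ERBB4, reached 10.5 in C4-2BER over an alternative start site and 2.45 at its canonical TSS. Its H3K18ac values were 5.42 and 5.37, and 3.15 and 3.94 at the canonical TSS. NRG3, a ligand of ERBB4, had 2.72, FGF18 had 2.51 and FGF19, a ligand of FGFR4, had 2.17. The promoter of HGF, the ligand of MET, had an H3K18ac peak of 2.13 in C4-2BER alone and no H3K27ac peak.

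The decreased promoters belonged to a ligand, 2 inhibitors and a kinase subunit. HBEGF, a ligand of EGFR and ERBB4, had an H3K27ac fold enrichment of 6.46 in C4-2BER against 16.1 in C4-2B (log2 ratio -1.32). SPRY1, a feedback inhibitor of receptor signalling, had 11.9 and 28.1 (log2 ratio -1.24). DUSP4, a phosphatase of MAP kinases, had 15.8 and 31.8 (log2 ratio -1.01). Their H3K18ac values were also lower in C4-2BER, with log2 ratios of -0.85, -0.92 and -0.57. PIK3CA, the catalytic subunit of a PI3 kinase, was decreased in H3K18ac, with 5.76 and 11.7. After rescaling, 1 of the 3 H3K27ac decreases, that of HBEGF, was still called, and the H3K18ac call was lost. By group, H3K27ac was lower in C4-2BER at 15 of 16 negative regulators and 16 of 17 adaptor and PI3K-AKT genes, and at 3 of the 7 ERBB ligands with a peak in both lines. Of all genes with an H3K27ac promoter peak in both lines, 12.2% were higher in C4-2BER. The median log2 ratios of these groups after rescaling were -0.16, -0.06 and 0.45, against -0.111 for all genes.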

How the data were processed

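H3K27ac and H3K18ac ChIP-Seq of C4-2B and C4-2BER cells was used as 4 deposited lists of broad peaks. Reads had been mapped by the authors to GRCh38 (bowtie2). They filtered out duplicates, alignments of low quality and blacklisted sites, pooled the replicates, and ran macs2 on the pools. The submitters' processing notes name Bowtie2 2.2.3 and Trimmomatic 0.33. The version and settings of macs2 and its control are not given in the sources used here. For each peak the deposited lists hold a fold enrichment (a ratio to local background) and the −log10 of its p-value and of its q-value.

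From these lists, peaks were placed on GENCODE release 44 genes, and peaks of both lines that shared at least 1 base were merged into regions. Calls needed a peak in 1 line alone or a ratio of at least 2. No test was possible. Results for some genes and motifs are not reported here. The receptors and the pathway and marker lists were chosen with earlier results of these data known. Named were all receptors, pathway genes with a called promoter (up to 6 per direction), and, for each receptor, the highest region of each list, the highest region of 1 line alone and the shared region with the largest ratio, and neighbours under such a region. Other regions were chosen after their values were seen. Results were recomputed under 12 alternatives and 2 added after seeing the data. Merging and calling were tested on simulated data. Python 3.11.15, numpy 2.4.6, pandas 2.3.3, matplotlib 3.10.9 and samtools 1.23.1 were used.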

Additional observations from a re-analysis of the deposited data

How the results depend on the processing

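No paired analysis was possible because peaks were called on pools of the replicates, and for the same reason no replicate could be left out. The 4 decreased H3K27ac promoters of the receptors kept that call under each alternative that uses a ratio, and with the presence of a peak alone the count was 0, as it was for H3K18ac. For H3K18ac, 1 increased receptor promoter was found after rescaling and with a ratio of 1.5 (FGFR3 in both cases), with peaks of a fold enrichment of at least 4 (FGFR4), and with fold enrichment times width (EGFR). With this last measure, which sums whole peaks at all start sites of a gene, FGFR3 took the place of IGF1R as the decreased H3K18ac promoter.

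Region counts depended on the peaks kept and on the window. With a fold enrichment of at least 4, 5 H3K27ac regions were increased and 23 decreased, 5 H3K18ac regions were increased and 18 decreased, and 1 was increased and 11 decreased in both marks. With a −log10 q of at least 5 the counts were 8 and 29 for H3K27ac and 13 and 31 for H3K18ac. In the gene body alone they were 10 and 44, 24 and 45, and 1 and 11 in both marks. With a flank of 100 kb, 52 H3K27ac and 76 H3K18ac regions were increased, and 6 in both marks. Without the IGF1R, EGFR and FGFR3 loci, 17 H3K27ac and 41 H3K18ac regions were decreased.

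Of the pathway genes, 21 H3K27ac and 11 H3K18ac promoters were decreased with a ratio of 1.5, 1 and 0 after rescaling, and 0 and 0 by presence alone. Increased H3K27ac promoters numbered 7 with the canonical TSS, 2 with the q limit and 1 with the fold limit. For H3K18ac, 2 were increased with the canonical TSS and 3 decreased with the fold limit. The other 96 recomputed counts were within 1.5 times those reported, and the receptor promoter ratios called as reported (IGF1R, FGFR2, FGFR3 and FGFR4 in H3K27ac, IGF1R in H3K18ac) kept their sign wherever a ratio could be computed. The H3K18ac log2 ratio of FGFR3 was 1.13 after rescaling and -2.66 with fold enrichment times width. Ratios of single pathway genes were not recomputed. Of the recomputed values of single receptors (promoter ratios and covered shares of the windows), 55 lost or gained a call or moved by over 1.5 times and 263 did not. With a fold enrichment of at least 4, the order of the lines in H3K18ac coverage turned at MET (0.903% in C4-2BER and 0.932% in C4-2B), FGFR2 (1.497% and 2.895%), FGFR4 (8.30% and 4.09%), ERBB3 (18.1% and 17.2%) and ERBB4 (0.278% and 0.212%). Depth is unknown, so a missing peak does not show that acetylation was absent, and weak peaks present in 1 line alone are the least certain.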
